A study of Mus musculus with 6 samples.

Results

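The genes of the cell cycle and of DNA replication were examined in hindlimb muscle of mice that lack the proteasome subunit Rpt3 in muscle fibers. The list held 42 genes, matched to array probes by gene symbol, out of 18563 genes with a named probe on the array. A named probe was found for 40 of them and for neither Tyms nor Cdkn1b. Testing required a probe not flagged near background on at least 3 of the 6 arrays, which held for 33 of the 40 genes and for 14732 genes in all. Total RNA came from 3 Rpt3-/- mice and 3 control mice (Rpt3+/+), all female and 6 weeks old, with 1 array per mouse. The labels give both groups 1 strain entry, Mlc1f-Cre with floxed Rpt3, whereas the study describes the controls as Mlc1f-Cre/Rpt3+/+, so that both groups carry Cre. The Mlc1f promoter is active in skeletal muscle fibers, in adults in the fast-twitch ones, so that slow-twitch fibers and other cells of the tissue are not its known targets, and the study describes excision by this Cre as incomplete. The labels name the tibialis anterior and the study's text the gastrocnemius.

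Cells enter the cell cycle when D-type cyclins with Cdk4 or Cdk6 phosphorylate the retinoblastoma protein, which frees E2F factors to switch on the genes for DNA synthesis. Origins are then licensed by Cdt1, which loads the Mcm helicase, and re-licensing is held back by geminin. Cdk1 with B-type cyclins drives mitosis, and the proteasome ends each phase by degrading cyclins, Cdt1, geminin, survivin and other regulators. Adult muscle fibers are post-mitotic, so in muscle these genes are best known from satellite cells, which are the resident muscle stem cells, and from other mononucleated cells. Array values are RNA levels of whole tissue, in which more cells of a type and more RNA per cell cannot be told apart.

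All values are log2 intensities after background correction and quantile normalization between arrays, and a difference is the Rpt3-/- mean minus the Rpt3+/+ mean. Each was tested with limma, a linear model fitted over all tested genes, with p-values adjusted over these genes by the Benjamini-Hochberg method. The share of probes above background was between 57.0% and 74.5% per array and was lowest on the second control array. Correlations between arrays lay between 0.901 and 0.983. Psmc4, which encodes Rpt3, differed by -1.17 on its brighter probe (standard error 0.13, adjusted p = 0.000334 from limma over probes), with each Rpt3-/- array below each control array. The fast fiber genes were bright in both groups, the median of their group means being 14.47 in Rpt3-/- and 14.59 in control muscle. At this end of the scale quantile normalization gives every array the same few values, so these medians do not measure fiber content.

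Of the 33 tested cell cycle genes, 7 were higher in Rpt3-/- muscle and 0 were lower by limma, with a threshold of 0.05 on the adjusted p. The 7 were Cdk1, Cdt1, Mki67, Birc5, Cdk4, Ccnb2 and Gmnn, whose differences ranged from 0.62 to 1.33. They made up 21.2% of the tested cell cycle genes, while 12.7% of all tested genes were higher and 6.56% were lower. The list was chosen with earlier results of these data known, so these shares and the medians below describe it and do not test it. Before adjustment limma gave 10 higher and 0 lower genes of the list, against 19.2% and 12.9% of all tested genes. The methods' t-test, the unpaired test that the study names, gave 12 and 0 before adjustment, against 17.0% and 11.1% of all tested genes, and 7 and 0 after it, against 6.38% and 2.90%. Without the second control array, the dimmest, 11 genes of the list and 15.8% of all tested genes were higher, and 0 and 9.22% lower, with Mcm3, Mcm6, Rb1 and Top2a added to the 7, although Top2a was above background on none of the control arrays. Gmnn was lost, leaving 6, without the third array of either group, and without the first control array Mcm7 was lower. With each array centred on its median in place of quantile normalization, the list gave 8 higher genes, Rb1 being added, and all tested genes gave 2555 higher (17.3%) and 602 lower (4.09%) against 1870 and 967 here.

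The median difference over the 33 genes was 0.25, against -0.01 over all tested genes. The difference was above 0 for 29 of the genes and below 0 for 4. Every Rpt3-/- array lay above every control array for 14 of the 33 genes, an arrangement found in 21.2% of all tested genes. The opposite arrangement was found for 0 of the 33 and in 15.6% of all tested genes. For the 26 genes that did not pass, the differences lay between -0.32 and 0.48, and the bounds of their 95% confidence intervals between -0.69 and 0.83.

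**Figure D1:**
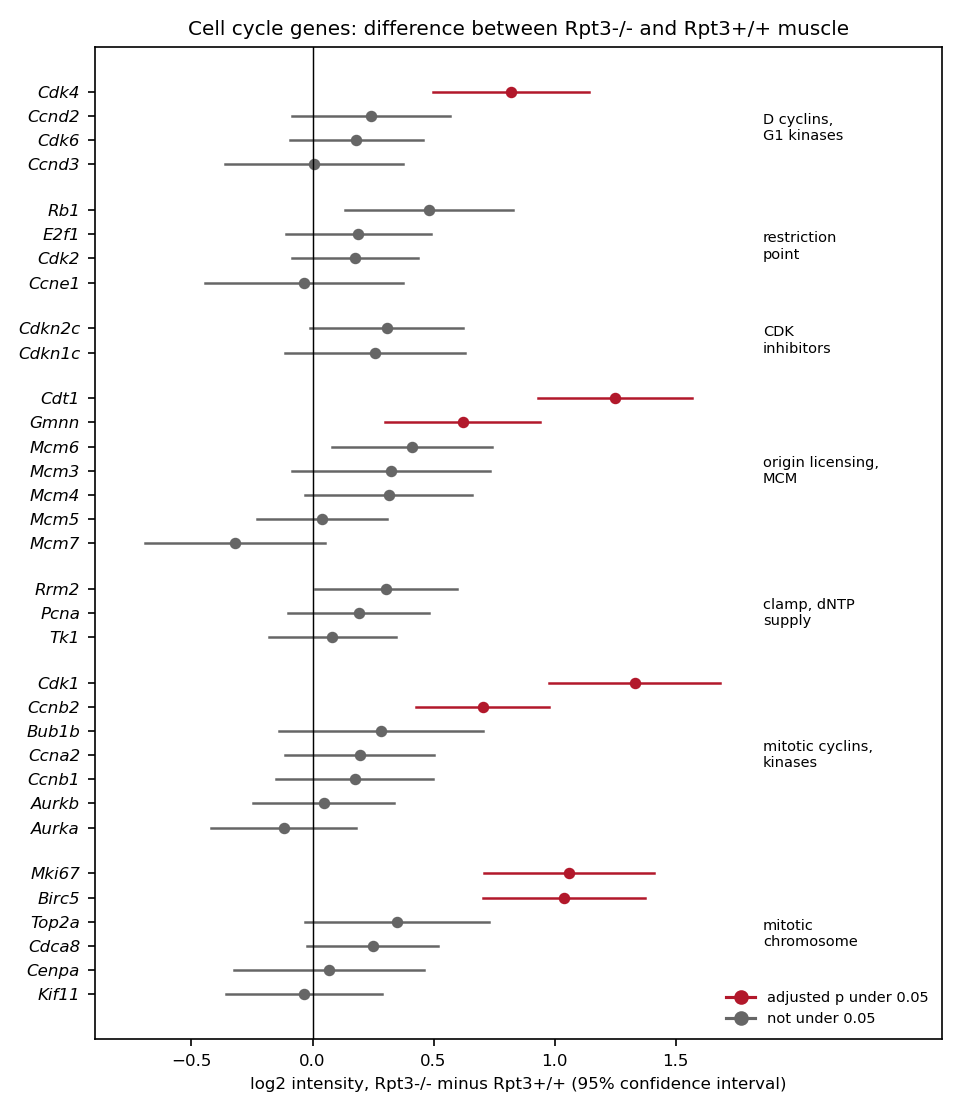
Difference in log2 intensity between 3 Rpt3-/- and 3 Rpt3+/+ muscles for the 33 tested genes, grouped by role, with points for the estimate and lines for the 95% confidence interval from limma. The 7 genes in red passed an adjusted p of 0.05 and lie between 0.62 and 1.33, while the 26 genes in grey lie between -0.32 and 0.48.

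**Figure D2:**
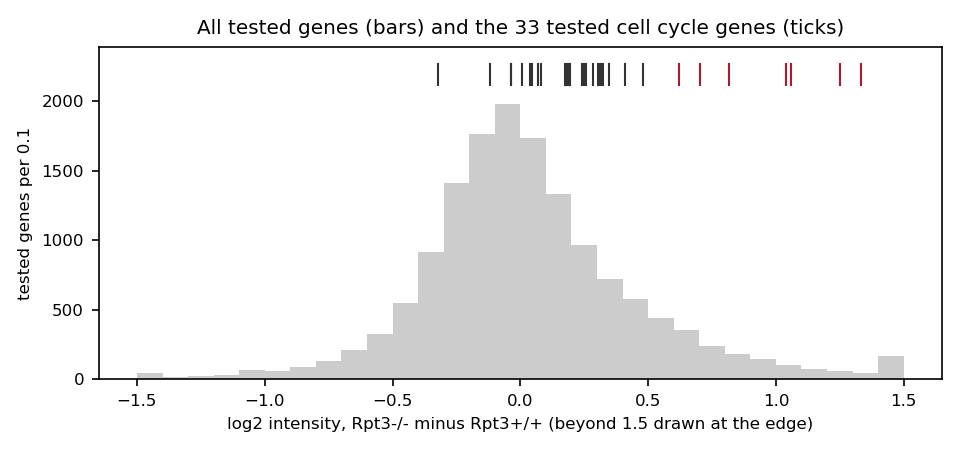
Histogram of the difference in log2 intensity over 14732 tested genes in bins of 0.1 (grey bars, values beyond 1.5 drawn at the edge), with ticks for the 33 cell cycle genes and red ticks for the 7 that passed. The ticks have a median of 0.25 and all genes a median of -0.01.

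Promoters are shown for genes that were higher, because genes of successive cell cycle phases are known for different promoter elements. RefSeq sequences from 250 bases before to 50 bases after the start, on the GRCm38.p6 build, were matched for 33 of the 42 genes, and Gmnn was the 1 higher gene not matched. They were searched on both strands for an E2F element (TTTGGCGC, TTTCCCGC, TTTGCCGC or TTTCGCGC), for the cell cycle genes homology region, CHR (TTTGAA or TTTAAA), for the box bound by NF-Y (CCAAT) and for an E-box (CACGTG). None of these strings contains another, and TTTAAA and CACGTG read the same on both strands. The strings were chosen after the values and some of the sequences had been seen. The first 280 bases, up to 30 bases after the start, are printed for 4 genes 5′ to 3′ with the matches in capitals. They lie at chr10:69352883-69353162 on the minus strand (Cdk1), chr9:70421525-70421804 on the minus strand (Ccnb2), chr7:135716350-135716629 on the minus strand (Mki67) and chr10:127063285-127063564 on the plus strand (Cdk4).
Cdk1: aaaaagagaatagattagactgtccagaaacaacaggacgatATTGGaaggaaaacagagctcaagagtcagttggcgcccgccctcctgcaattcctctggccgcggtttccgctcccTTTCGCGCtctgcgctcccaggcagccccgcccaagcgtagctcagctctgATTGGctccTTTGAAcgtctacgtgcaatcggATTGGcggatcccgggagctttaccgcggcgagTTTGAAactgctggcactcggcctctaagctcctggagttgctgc
Ccnb2: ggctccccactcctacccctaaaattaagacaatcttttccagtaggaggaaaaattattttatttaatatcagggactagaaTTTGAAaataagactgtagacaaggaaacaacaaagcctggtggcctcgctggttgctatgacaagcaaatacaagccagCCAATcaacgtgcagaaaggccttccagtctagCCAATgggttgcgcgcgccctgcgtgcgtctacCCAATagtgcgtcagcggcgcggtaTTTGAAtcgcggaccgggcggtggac
Mki67: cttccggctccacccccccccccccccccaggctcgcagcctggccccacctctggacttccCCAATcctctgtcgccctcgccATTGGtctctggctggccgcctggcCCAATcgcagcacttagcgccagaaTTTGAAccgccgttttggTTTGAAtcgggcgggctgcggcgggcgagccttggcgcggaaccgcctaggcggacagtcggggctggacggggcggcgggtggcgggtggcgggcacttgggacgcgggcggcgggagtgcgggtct
Cdk4: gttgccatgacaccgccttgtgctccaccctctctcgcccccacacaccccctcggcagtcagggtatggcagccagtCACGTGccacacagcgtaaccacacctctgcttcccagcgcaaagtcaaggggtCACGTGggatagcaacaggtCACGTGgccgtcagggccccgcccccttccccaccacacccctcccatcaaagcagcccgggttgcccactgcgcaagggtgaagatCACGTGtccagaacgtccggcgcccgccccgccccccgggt

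Cdk1, Ccnb2 and Mki67 each held 2 CHR matches and 3 CCAAT matches, some of them on the reverse strand as ATTGG. Cdk1 held in addition an E2F match whose first base lay at -131 from the start. Cdk4 held none of these and instead 4 E-boxes, at -172, -118, -98 and -11. In Cdt1 an E2F match lay at 33 after the start, and in Birc5 a CHR match at -220. A CHR and a CCAAT match stood together in 16 of the 33 matched promoters (48.5%), against 13.4% of 27025 genes with a promoter. CCAAT was found in 25 of the 33 (75.8%) against 41.1% of all genes, CHR in 19 (57.6%) against 30.6%, the E2F strings in 7 (21.2%) against 2.6%, and the E-box in 4 (12.1%) against 8.09%. Among tested genes that did not pass, 9 of 20 held both CHR and CCAAT, beside 3 of the 6 higher genes. Mcm3, Mcm5 and Mcm7 held 2 E2F matches each and Mcm6 held 3, and none of these 4 genes passed the test. A match describes letters and not a bound factor.

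**Figure D3:**
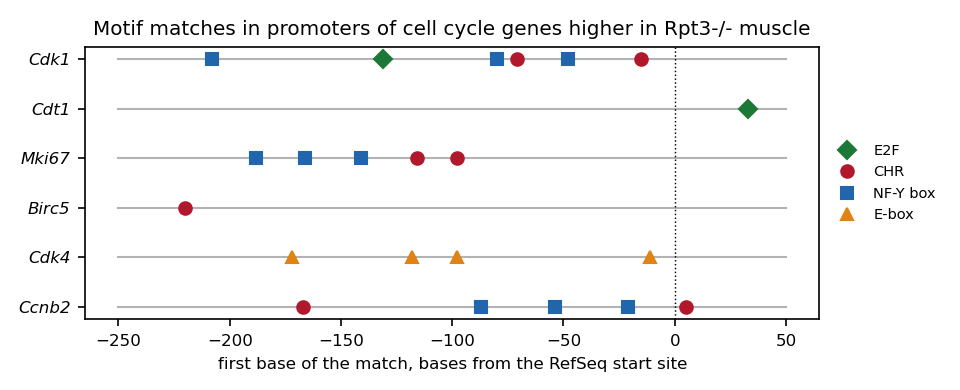
Position of each motif match in the promoters of the 6 higher genes with a RefSeq promoter, as bases from the annotated start (dotted line), with 1 grey line per gene from 250 before to 50 after it. Cdk1, Mki67 and Ccnb2 each carry 2 CHR matches and 3 NF-Y boxes, and Cdk4 carries 4 E-boxes.

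Among the D-type cyclins and the kinases of G1, 1 of 4 tested genes was higher. Cdk4, the kinase that D-type cyclins activate, had log2 intensities of 8.87, 8.82 and 9.08 in Rpt3-/- muscle and 7.89, 8.26 and 8.17 in control muscle. The groups did not overlap, and the lowest control array was the first. The difference was 0.82, a 1.76-fold higher level (standard error 0.14, adjusted p = 0.00353 from limma). Cdk6, the other kinase of this step, read 7.34, 7.17 and 7.25 in Rpt3-/- and 7.06, 6.99 and 7.17 in control muscle, a difference of 0.18 that did not pass (95% confidence interval -0.10 to 0.46). For Ccnd2, which encodes cyclin D2, the difference was 0.24 (-0.08 to 0.57), and for Ccnd3, cyclin D3, it was 0.01 (-0.36 to 0.37). Neither pair of groups was separate. Ccnd1, cyclin D1, was above background on 0 of 6 arrays and has no tested value.

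At the restriction point, where the retinoblastoma protein and E2F act, 0 of 4 tested genes passed by limma, with 1 at an unadjusted p under 0.05 and Cdk2 alone after adjustment of the methods' t-test. Rb1, the retinoblastoma gene, lay closest to the threshold. Its log2 intensities were 8.80, 8.69 and 8.87 in Rpt3-/- muscle and 8.09, 8.61 and 8.21 in control muscle, which did not overlap. The difference was 0.48 (standard error 0.16, adjusted p = 0.0558 from limma), and it was 0.63 with an adjusted p of 0.00693 without the second control array, the brightest control for this gene. Cdk2, the partner of cyclin E, differed by only 0.18 but with little spread, since the arrays read 7.74, 7.75 and 7.67 against 7.53, 7.53 and 7.58 (95% confidence interval -0.08 to 0.44). E2f1, a transcription factor of S phase genes, differed by 0.19 (-0.11 to 0.49) and Ccne1, cyclin E1, by -0.04 (-0.44 to 0.37), both with overlapping groups.

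Neither of the tested inhibitors of cyclin-dependent kinases passed, also at an unadjusted p. Cdkn2c, which encodes the Cdk4 and Cdk6 inhibitor p18, read 8.77, 8.43 and 8.70 in Rpt3-/- and 8.42, 8.39 and 8.17 in control muscle, so that the groups stood apart by a narrow margin. Its difference was 0.31 (-0.01 to 0.62) on the brightest probe and 0.04 on the other probe. For Cdkn1c, the p57 gene, the difference was 0.26 (-0.11 to 0.63) and the groups overlapped.

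Among 7 tested genes of origin licensing and of the Mcm helicase, the 2 genes that passed were the loader and its inhibitor. Cdt1, the licensing factor, had log2 intensities of 8.38, 8.23 and 8.49 in Rpt3-/- and 6.93, 7.31 and 7.12 in control muscle. Its lowest Rpt3-/- array lay above its highest control array. The level was 2.38-fold higher (difference 1.25, standard error 0.14, adjusted p = 0.000329 from limma). Gmnn, which encodes geminin, the protein that binds and blocks Cdt1, read 7.50, 7.65 and 7.95 against 7.13, 7.08 and 7.03. The control arrays lay close together and the Rpt3-/- arrays spread more (SD 0.23 against 0.05, n = 3 each). The difference was 0.62, or 1.54-fold (standard error 0.14, adjusted p = 0.0132 from limma). It was 0.50 without the third Rpt3-/- array (adjusted p = 0.0591) and 0.59 without the third control array (adjusted p = 0.0716).

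The subunits of the Mcm helicase, which unwinds DNA at the fork, did not pass and did not all lean the same way. Mcm6 read 7.02, 7.14 and 7.34 in Rpt3-/- and 6.57, 6.96 and 6.73 in control muscle, without overlap (difference 0.41, standard error 0.15, adjusted p = 0.0814 from limma). Differences of 0.32 for Mcm3 and 0.31 for Mcm4 came with overlapping groups. Without the second control array, which was the brightest control for all 3, Mcm6 reached 0.51 (adjusted p = 0.0274) and Mcm3 0.52 (adjusted p = 0.0309), while Mcm4 did not pass. Mcm5 differed by 0.04 (-0.23 to 0.31). Mcm7 was the member furthest below 0, with log2 intensities of 6.32, 6.49 and 6.65 in Rpt3-/- and 6.50, 7.07 and 6.85 in control muscle. Its difference was -0.32 (-0.69 to 0.05), and -0.47 with an adjusted p of 0.0369 from limma without the first control array, the lowest control. Mcm7 was above background on 2 of 3 Rpt3-/- and on all 3 control arrays, so the size of this difference rests on values near background. Mcm2 was above background on 2 of 6 arrays and was not tested.

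Of the genes for the sliding clamp and for nucleotide supply, 0 of 3 passed by limma, with 1 at an unadjusted p under 0.05. Rrm2, the small subunit of ribonucleotide reductase, read 8.40, 8.57 and 8.72 in Rpt3-/- and 8.27, 8.33 and 8.18 in control muscle. The groups did not overlap and the difference was 0.30 (standard error 0.13, adjusted p = 0.145 from limma). Pcna, the clamp that holds the polymerase on DNA, differed by 0.19 (-0.10 to 0.48). Tk1, thymidine kinase of the salvage route, differed by 0.08 (-0.18 to 0.35) on its brightest probe and by 0.33 on another, neither passing. Rrm1, the large reductase subunit, was above background on 0 of 6 arrays.

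Cdk1 and Ccnb2 were the higher genes among 7 tested mitotic cyclins and kinases. Cdk1, the mitotic kinase, had log2 intensities of 8.15, 7.72 and 7.98 in Rpt3-/- muscle and 6.77, 6.70 and 6.39 in control muscle. Every Rpt3-/- array lay well above every control array, but only 1 of the 3 control arrays was above background. The fitted difference was 1.33 (standard error 0.16, adjusted p = 0.00042 from limma), and its size rests on control values near background. Ccnb2, which encodes cyclin B2, a partner of Cdk1, read 7.30, 7.17 and 7.36 against 6.52, 6.56 and 6.65, and 2 of 3 control arrays were above background. Both groups were tight, and the difference was 0.70, or 1.63-fold (standard error 0.12, adjusted p = 0.0034 from limma). In the authors' value table, which carries no offset, the difference was 2.11 for Cdk1 and 1.26 for Ccnb2, and it was 1.06 for Ccnb2 with an offset of 10.

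The other mitotic cyclins and kinases did not pass. Ccnb1, cyclin B1, read 6.66, 6.84 and 6.77 in Rpt3-/- and 6.76, 6.33 and 6.66 in control muscle, and the groups overlapped (difference 0.17, -0.15 to 0.50). For Ccna2, cyclin A2, the difference was 0.19 (-0.11 to 0.50), for Bub1b, the spindle checkpoint kinase BubR1, 0.28 (-0.14 to 0.70), and for Aurkb, the kinase of the chromosomal passenger complex, 0.05 (-0.24 to 0.34). Aurka, the spindle pole kinase, gave different answers on its 2 probes. The brighter probe read 7.61, 7.86 and 7.76 in Rpt3-/- and 7.73, 7.85 and 8.01 in control muscle, a difference of -0.12 (-0.42 to 0.18). The other probe read 6.17, 6.03 and 6.08 in Rpt3-/- muscle, above background on 0 of 3 arrays, and 6.78, 7.10 and 6.98 in control muscle, above background on all. That probe entered the test through the control group alone, so its difference is given as a description, at least 1.49-fold lower in Rpt3-/- muscle, a bound taken against the lowest signal above background on each array. With the mean of both probes Aurka differed by -0.49, a value that rests on the dim probe. Plk1, polo-like kinase, was above background on 1 of 6 arrays, and neither probe of Bub1, a checkpoint kinase, was above background on more than 2 of them.

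Mki67 and Birc5 were the higher genes among 6 tested genes of mitotic chromosomes, the spindle and mitotic exit. Mki67, which encodes the proliferation antigen Ki-67 that coats mitotic chromosomes, read 8.56, 8.25 and 8.55 in Rpt3-/- and 7.13, 7.60 and 7.45 in control muscle. The groups did not overlap and the first control array was the lowest. The level was 2.08-fold higher (difference 1.06, standard error 0.16, adjusted p = 0.00142 from limma). Birc5, which encodes survivin, a subunit of the chromosomal passenger complex, read 8.15, 7.66 and 8.01 against 6.94, 6.96 and 6.81. Its level was 2.05-fold higher (difference 1.04, standard error 0.15, adjusted p = 0.00122 from limma), and the Rpt3-/- arrays spread more than the control arrays (SD 0.25 against 0.08, n = 3 each). Cdca8, which encodes borealin of the same complex, read 7.39, 7.33 and 7.26 against 7.04, 7.02 and 7.17, a difference of 0.25 that did not pass (-0.02 to 0.52), although the groups did not overlap.

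Top2a, the topoisomerase that untangles sister chromatids, was above background on all 3 Rpt3-/- arrays and on 0 of 3 control arrays. It was the 1 tested member that entered the test through the Rpt3-/- group alone. The arrays read 6.60, 6.49 and 6.92 in Rpt3-/- and 6.09, 6.60 and 6.27 in control muscle, and they overlapped. Its fitted difference of 0.35 did not pass (-0.03 to 0.73, adjusted p = 0.193 from limma), and the controls are known only to lie near or below background. Cenpa, the centromeric histone, differed by 0.07 (-0.32 to 0.46) and Kif11, a spindle motor, by -0.03 (-0.36 to 0.29), with 0.07 on its other probe. Cdc20, an activator of the anaphase-promoting complex, and Kif20a, a motor of the central spindle, were above background on 0 of 6 arrays.

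**Figure D4:**
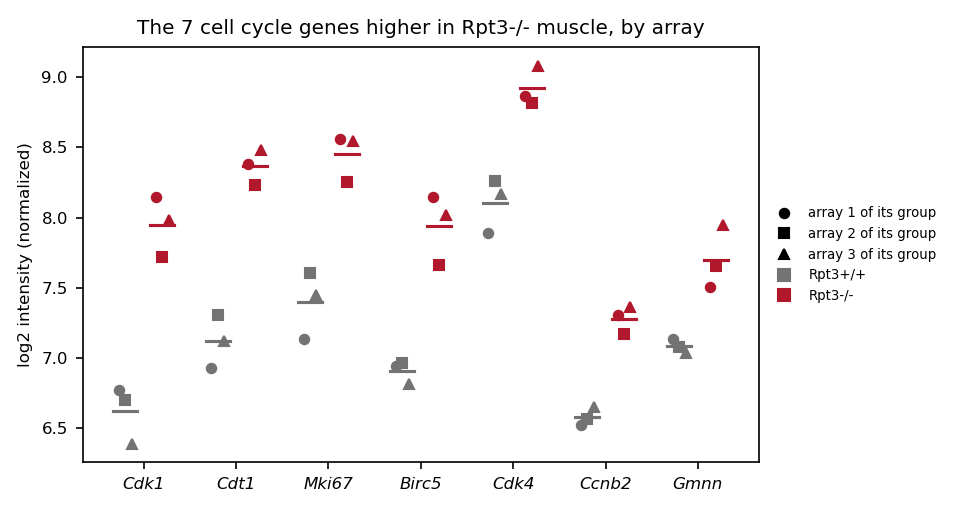
Normalized log2 intensity of the 7 higher genes on each array, with a symbol for each array of its group and a line for the group mean (n = 3). For each gene the 3 Rpt3-/- arrays (red) lie above the 3 Rpt3+/+ arrays (grey), and the second Rpt3-/- array is the lowest of its group for 6 of the 7. The same order was not counted over all tested genes.

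The second Rpt3-/- array was the lowest of its group for 6 of the 7 higher genes, all but Gmnn, and for 18 of the 33 tested genes. The share of all tested genes that were lowest on that array was not counted, so this order is not a result about the list. The same array was the lowest of its group in the summed intensity of 11 tested macrophage markers, which was 9274, 6249 and 6863 in Rpt3-/- muscle and 2876, 2547 and 2504 in control muscle. That sum was highest on the first Rpt3-/- array, as were Cdk1, Mki67 and Birc5, whereas Cdt1, Cdk4, Ccnb2 and Gmnn were highest on the third. Of the macrophage markers 9 were higher and 0 lower by limma, among them C1qa, a complement subunit, by 2.13 and Lyz2, lysozyme, by 1.56. Mrc1 (0.19) and Cd163 (-0.04) did not pass. Csf1r and Cd68 had no named probe, and Adgre1 and Itgam had a probe but were not tested. Of 9 satellite cell and myoblast markers tested, 3 were higher, which were Ncam1 by 1.61, Myog by 1.12 and Itga7 by 0.87. Chrdl2 was the 1 lower marker, with a difference of -0.51. Myod1 (0.55), Myf5 (0.44), Des (0.37), Cdh15 (0.32) and Megf10 (0.16) did not pass, and Pax7 had a probe but was not tested. The summed intensity of the 9 tested markers was 13554, 12456 and 12849 against 9680, 9720 and 9421. From 74.0% to 82.7% of it came from Des, the desmin gene, which mature fibers also express. Whether fibers express the other markers was not examined. Without Des the sum was 3517, 2491 and 3137 against 1677, 2228 and 1952, and the second Rpt3-/- array was again the lowest of its group. The part of these cells in the values of the 7 genes was not tested.

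Markers of the other cell types were counted in the same way. The 9 tested endothelial markers gave 0 higher and 0 lower genes by limma (0 and 1 before adjustment). Their sums overlapped, at 3213, 2926 and 3191 in Rpt3-/- and 2917, 3614 and 3295 in control muscle. In Rpt3-/- muscle they too were lowest on the second array. Fibroblast markers gave 3 higher and 0 lower of 9, with sums of 27821, 29096 and 29835 against 18858, 22555 and 20896. Lymphocyte markers gave 0 higher and 2 lower of 7, with sums of 2249, 2449 and 2453 against 3625, 2495 and 2743. For fibroblast and lymphocyte markers the first Rpt3-/- array was the lowest of its group. Schwann cell markers gave 0 of 5 and erythroid markers 0 of 2 by limma, with 0 and 1 gene at an unadjusted p under 0.05. Of the 12 fast fiber markers 1 was higher and 2 were lower, Myl1, from whose promoter Cre is expressed, by -0.85.

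**Figure D5:**
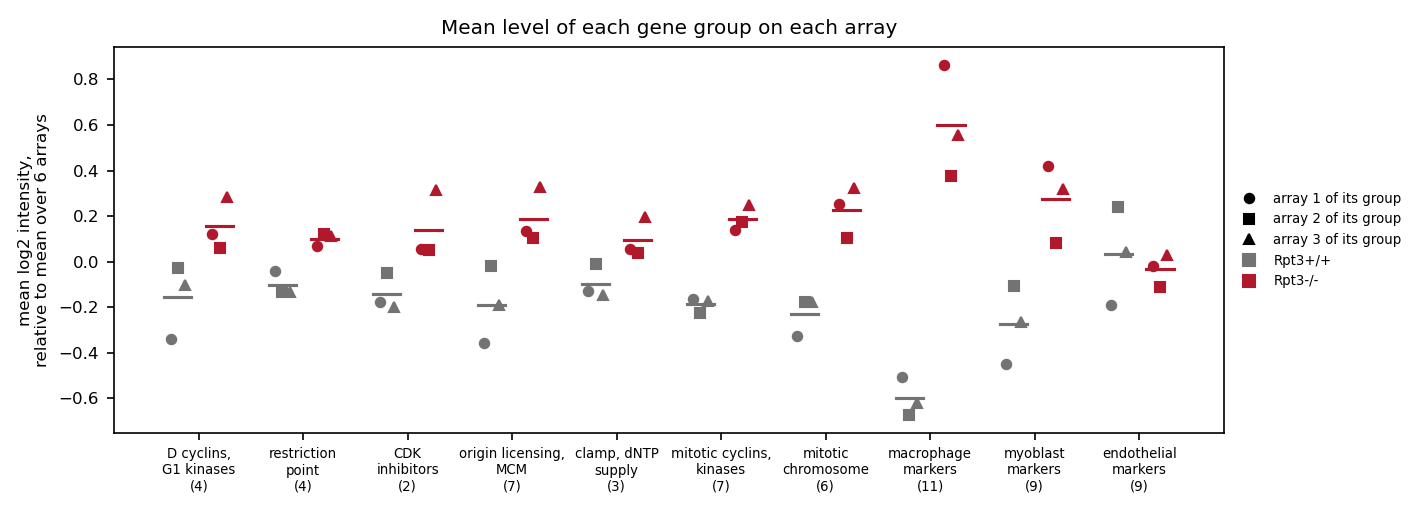
Mean log2 intensity of each gene group on each array relative to the mean over the 6 arrays, with the number of genes in brackets, symbols for the arrays and lines for group means (n = 3). All 7 cell cycle groups lie higher on every Rpt3-/- array than on any control array. For the clamp and nucleotide supply the nearest arrays lie at 0.04 and -0.01. How often other gene groups of like size separate was not counted, so this separation is not a result about the list. Macrophage markers, with the widest gap of the groups drawn, and myoblast markers are separate too, while endothelial markers overlap. Fibroblast markers, which are not drawn, were also separate, with means of 10.44, 10.52 and 10.60 in Rpt3-/- and 9.83, 10.34 and 10.18 in control muscle.

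A wider list of 142 other genes of replication, the G1/S step, G2 and mitosis was read in the same fit. Of its 110 tested genes, 13 were higher and 6 lower in Rpt3-/- muscle, or 11.8% and 5.45%, near the 12.7% and 6.56% of all tested genes, and the median difference was 0.05. Leaving out 1 array changed these counts to 8 and 1 without the first, 7 and 1 without the second and 7 and 3 when the third Rpt3-/- array was dropped, and to 14 and 11 without the first, 15 and 9 without the second and 6 and 0 without the third control array.

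Among 24 regulators of the G1/S step 6 were higher and 3 lower, or 25% and 12.5%, against 12.7% and 6.56% of all tested genes. Cdkn2b, the p15 inhibitor of Cdk4 and Cdk6, read 8.19, 7.82 and 8.07 in Rpt3-/- and 7.04, 6.63 and 7.01 in control muscle, 2 of 3 control arrays being above background (difference 1.13, adjusted p = 0.00102 from limma). E2f8, an E2F repressor, read 7.99, 7.68 and 8.14 against 6.72, 6.93 and 7.06 (difference 1.04, adjusted p = 0.00154). Lin54, the DNA-binding subunit of the complex that recognizes the CHR, differed by 0.73 (adjusted p = 0.00547). Other subunits of that complex went the other way. Lin9 was lower, by -0.57 (adjusted p = 0.0241 from limma), and Lin52 differed by -0.16, which did not pass. Tfdp1, the dimerization partner of E2F factors, was also lower, with 8.03, 8.35 and 8.56 against 8.70, 9.32 and 9.30 (difference -0.79, adjusted p = 0.0194). For Cdkn2b, E2f8, Lin54 and Tfdp1 the groups did not overlap. Cdkn2b, E2f8 and Lin54 passed in every alternative that tested them. Requiring a signal above background on all 6 arrays left Cdkn2b untested. Tfdp1 did not pass without the first Rpt3-/- (adjusted p = 0.098), the second Rpt3-/- (0.0521) or the third control array (0.0951), with the authors' value table (0.0507) or with the methods' t-test after adjustment (0.150).

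Among 38 replication genes 2 were higher and 2 lower, or 5.26% each, against 12.7% and 6.56% of all tested genes. Dnmt1, the maintenance DNA methyltransferase, differed by 0.62 (adjusted p = 0.0191 from limma), with -0.12 on its other probe, and Asf1b, a histone chaperone of the fork, by 0.69 (adjusted p = 0.0246), with 1 of 3 control arrays above background. Rpa2, a subunit of the single-strand binding protein, differed by -0.73 (adjusted p = 0.00842), and Rrm2b, the reductase subunit that p53 induces, by -0.47 (adjusted p = 0.0417). Each of the 4 lost its call in some alternatives. Rrm2b lost it in 11 of 19, which were the omission of any 1 Rpt3-/- array, of the second or of the third control array (adjusted p up to 0.189), an offset of 10, median centring, the authors' value table, the methods' t-test after adjustment, the replicate block and the 1.5-fold minimum. Dnmt1 lost it without the third control array, when the first or the third array of the Rpt3-/- group was dropped (up to 0.0892), with the methods' t-test after adjustment (0.104) and with the mean of its probes, which gave 0.25 (0.224). Asf1b lost it without the second or the third Rpt3-/- or the third control array (up to 0.108), with the methods' t-test after adjustment (0.150) and in the authors' value table, where its difference was 1.39 (0.0607). With an offset of 10 the difference of Asf1b was 1.10. Rpa2 lost it without the third control array (0.052) and with the methods' t-test after adjustment (0.0745).

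Among 48 genes of G2 and mitosis 5 were higher and 1 lower, or 10.4% and 2.08%, against 12.7% and 6.56% of all tested genes. Kif22, a chromokinesin, read 8.47, 8.19 and 8.41 in Rpt3-/- and 7.76, 7.72 and 7.60 in control muscle (difference 0.66, adjusted p = 0.00616 from limma). Bub3, a checkpoint protein, differed by 0.55 (adjusted p = 0.0179) on its brightest probe and by 0.09 and 0.22 on the others, and Prc1, which bundles microtubules of the central spindle, by 0.51 (adjusted p = 0.0285). Anapc5, a subunit of the anaphase-promoting complex, differed by -0.51 (adjusted p = 0.0311). Kif22 passed in every alternative run. Bub3 missed the threshold without the first or the second Rpt3-/- or the third control array (up to 0.104), with the methods' t-test after adjustment (0.0659), in the authors' value table (0.0536), under the 1.5-fold minimum and with the mean of its probes, which gave 0.29 (0.115). Prc1 missed it without any 1 Rpt3-/- array or the second or the third control array (up to 0.117), with the methods' t-test after adjustment (0.094) and under the 1.5-fold minimum. Anapc5 missed it without the first or the second Rpt3-/- or the second or the third control array (up to 0.137), with an offset of 10 (0.0609), the methods' t-test after adjustment (0.101), the 1.5-fold minimum and the authors' value table (0.181), and with median centring, which gave a difference of -0.21 (0.471).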

How the data were processed

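The scanner reports deposited by the authors hold, for each spot, a mean intensity, a local background intensity and a quality flag. The submitters' processing notes name CodeLink Expression Analysis 5.0.0.31312, and these values are not normalized between arrays. A second deposited table holds normalized linear intensities and served as an alternative with a pseudocount of 1. Of 34967 transcript probes, 21615 had 1 gene symbol in the platform annotation, 681 had several and stayed unnamed, 536 were named by RefSeq accession and 12816 had no name in all. The 1260 control spots were dropped after background correction.

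Intensities were corrected by normexp (offset 50) and quantile normalized, and log2 values were fitted with lmFit and eBayes (limma 3.58.1, R 4.3.3), 3 arrays against 3, without covariates. The brightest probe that passed the filter stood for a gene, and 51 tested genes had a missing spot. The threshold was an adjusted p of 0.05. The limma fit was tested on simulated log2 values. Background correction, normalization, the filter and the choice of probe were not part of that simulation. Each slide held 1 array, so slide could not be a block. The replicates are separate mice. Precision is limited by the 3 arrays a group and by dim signals.

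The members and lists were chosen with earlier results of these data known. Every member is accounted for by name. In each part of the wider list up to 4 called genes with the largest differences are named, and Lin9 and Lin52 are added beside Lin54. Alternatives were other background corrections, normalizations, filters, probe rules, variance models, tests and thresholds, the value table, the replicate number as a block and the omission of each array. Promoters were searched with Python 3.11.15. The sum of myoblast markers without Des was added after the data were seen.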

Additional observations from a re-analysis of the deposited data

How the results depend on the processing

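Counts of genes higher and lower in Rpt3-/- muscle are given here for all tested genes, the cell cycle list and the wider list, reported as 1870 and 967, 7 and 0, and 13 and 6. Leaving out each array in turn gave 1081 to 2332 higher and 387 to 1418 lower genes of all tested, 6 to 11 and 0 to 1 in the cell cycle list, and 6 to 15 and 0 to 11 in the wider list. The methods' t-test gave 940 and 427 genes of all tested after adjustment, with 6 and 0 in the wider list, and before adjustment 1636 lower genes of all tested, 12 higher genes in the cell cycle list and 20 and 10 in the wider list. Median centring gave 602 lower genes of all tested and 3 in the wider list. A minimum of 1.5-fold gave 619 lower genes of all tested and 2 in the wider list. An offset of 10 gave 3 and the authors' values gave 2 lower genes in the wider list. With the mean of probes 1 cell cycle gene, Aurka, was lower, through a probe that was above background on none of the Rpt3-/- arrays. The replicate numbers were fitted as a replicate block, which gave 1722 and 873 genes of all tested, 7 and 0 in the cell cycle list and 13 and 5 in the wider list. Deviations of same-numbered arrays correlated at 0.13, -0.44 and 0.10, so the numbers were not taken to pair the mice.

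Of the 7 higher genes, Cdk1, Cdt1, Mki67, Birc5, Cdk4 and Ccnb2 passed in every alternative that tested them. Requiring a signal above background on all 6 arrays left Cdk1 and Ccnb2 untested. Gmnn also missed the threshold with the adjusted t-test. No difference of a named gene that passed changed sign, but Lin9 was not followed across the alternatives. The signal over background limits 7 members, which were too dim to test. The median difference of all genes was between -0.01 and 0.05 under the scalings run.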
